A study of Mus musculus with 8 samples.

Results

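The transcripts described here are those of 10 BCL2 family genes that decide whether a B cell survives or dies by the mitochondrial route. They were chosen by symbol, as the identifiers that GENCODE M21 (GRCm38) names Bcl2, Bcl2l1, Mcl1, Bcl2a1b, Bcl2a1d, Bax, Bak1, Bcl2l11, Bbc3 and Pmaip1, and make up 10 of the 54018 identifiers in the deposited table. The table covers 8 RNA libraries, each made from mononuclear cells of the spleens of C57BL/6 mice with leukaemia. All mice carried the Eµ-TCL1A transgene, a model of chronic lymphocytic leukaemia in which an immunoglobulin enhancer drives the human TCL1A oncogene in B cells. The Kdm1aKD;Eµ-TCL1A libraries (called knockdown, replicates 1, 2, 4 and 5) came from leukaemic mice in which doxycycline induced a knockdown of the histone demethylase Kdm1a. The Eµ-TCL1A libraries (called control, replicates 1 to 4) had the transgene without the knockdown. Whether control mice received doxycycline, in which cells the knockdown construct was active, the ages of the mice and whether each library was 1 animal are not stated in the labels. The p-values therefore set each group difference against the scatter of these 8 libraries within their groups, which may be technical in part.

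The BCL2 family sets the threshold for permeabilization of the outer mitochondrial membrane. Survival proteins (BCL2, BCL-XL from Bcl2l1, MCL1 and A1 from the Bcl2a1 genes) hold the pore-forming effectors BAX and BAK in check, and BH3-only proteins (BIM from Bcl2l11, PUMA from Bbc3 and NOXA from Pmaip1) bind the survival proteins or activate the effectors. Chronic lymphocytic leukaemia cells are known for high BCL2 and for dependence on MCL1, and BCL-XL is known as a survival protein of maturing erythroid cells and platelets.

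The stretch that members of all these roles have in common is the BH3 core, a leucine, any 3 residues, glycine and aspartate. The sequences below are shown because this short helix takes part in binding between family members. They are 42-base coding windows from the GENCODE M21 transcripts (GRCm38), with the 18 bases of the core in capitals. The windows lie at chr1:106712572-106712613 (minus strand, Bcl2), chr2:152829694-152829735 (minus, Bcl2l1), chr3:95659424-95659465 (plus, Mcl1), chr7:45465994-45466035 (minus, Bax), chr17:27022528-27022569 (minus, Bak1), chr2:128147138-128147179 (plus, Bcl2l11) and chr7:16313761-16313802 (plus, Bbc3).
Bcl2: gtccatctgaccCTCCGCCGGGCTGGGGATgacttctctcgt
Bcl2l1: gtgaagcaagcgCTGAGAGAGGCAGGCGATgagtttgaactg
Mcl1: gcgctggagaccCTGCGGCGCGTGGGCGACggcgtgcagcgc
Bax: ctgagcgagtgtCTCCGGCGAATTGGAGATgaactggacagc
Bak1: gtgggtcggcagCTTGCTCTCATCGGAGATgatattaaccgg
Bcl2l11: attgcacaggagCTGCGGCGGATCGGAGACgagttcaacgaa
Bbc3: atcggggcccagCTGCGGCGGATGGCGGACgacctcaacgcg
The Bbc3 core has alanine in the place of the glycine. No match to the core was found in the Bcl2a1b and Bcl2a1d coding sequences, which says only that these letters are not there. Pmaip1 holds the motif at 2 places, and its sequence is not shown here. The motif is short, and 13.4% of 21556 mouse coding sequences hold it with glycine and 23.9% with glycine or alanine, so a match alone is a description.

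Values are FPKM, a count of fragments divided by transcript length and by library size, which allows levels to be compared between genes. Depth estimated from the steps between low values lay between 37286000 and 43706000 fragments, so 1 FPKM stood for 37.3 to 43.7 fragments per kilobase. Kdm1a had 20.2, 21.0, 15.5 and 15.6 FPKM in knockdown replicates 1, 2, 4 and 5, against 24.2, 21.2, 24.1 and 31.1 FPKM in control replicates 1 to 4, and the groups did not overlap. The knockdown mean was 71.9% of the control mean (log2 change −0.45, limma adjusted p = 0.223, two-sided exact permutation p = 0.0286, the smallest that 70 assignments allow). All 7 B cell markers were present in every library, at a mean log2(FPKM + 1) level of 7.65 to 9.13 in knockdown and 9.16 to 9.41 in control libraries. Knockdown replicate 4 stood apart, with the lowest value of all 7 B cell genes and the highest value of all 8 erythroid and all 8 cycling genes. Every knockdown library had at least 94.9 FPKM of Xist, as did control replicate 1 with 110 FPKM, against at most 0.128 FPKM in controls 2 to 4, so sex and group were nearly the same split and cannot be told apart.

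No member passed the test between the groups. Of 12890 genes tested with limma on log2(FPKM + 1), 1.74% passed an adjusted p of 0.05, 19.2% had an unadjusted p under 0.05 and 13.1% had groups that did not overlap. In this fit the count was 0 of 10 members by each of these measures, and adjusted p-values ran from 0.291 to 0.999. The knockdown mean was above the control mean on the log2 scale for 7 members, the effectors and BH3-only genes among them, and below it for Bcl2, Mcl1 and Bcl2a1b. The median log2 change of the members was 0.24, beside 0.13 over all genes tested. After median-of-ratios scaling it was 0.07, with 6 members positive, beside −0.01 over all genes, and after quantile normalization 0.06, with 6 positive, beside −0.03. Without knockdown replicate 4 it was 0.09, beside 0.14 over all genes. The count at an unadjusted p under 0.05 depended on scaling. After median-of-ratios scaling Bcl2 and Mcl1 had unadjusted p-values of 0.0353 and 0.0441 (limma), where 2183 of 12890 genes lay under 0.05. Their adjusted p-values were 0.266 and 0.286. A p that misses the threshold does not show that levels were the same, so each member's change is given with its 95% interval. In a mixture of splenic mononuclear cells, fewer cells of a type and less RNA per cell cannot be told apart.

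**Figure D1:**
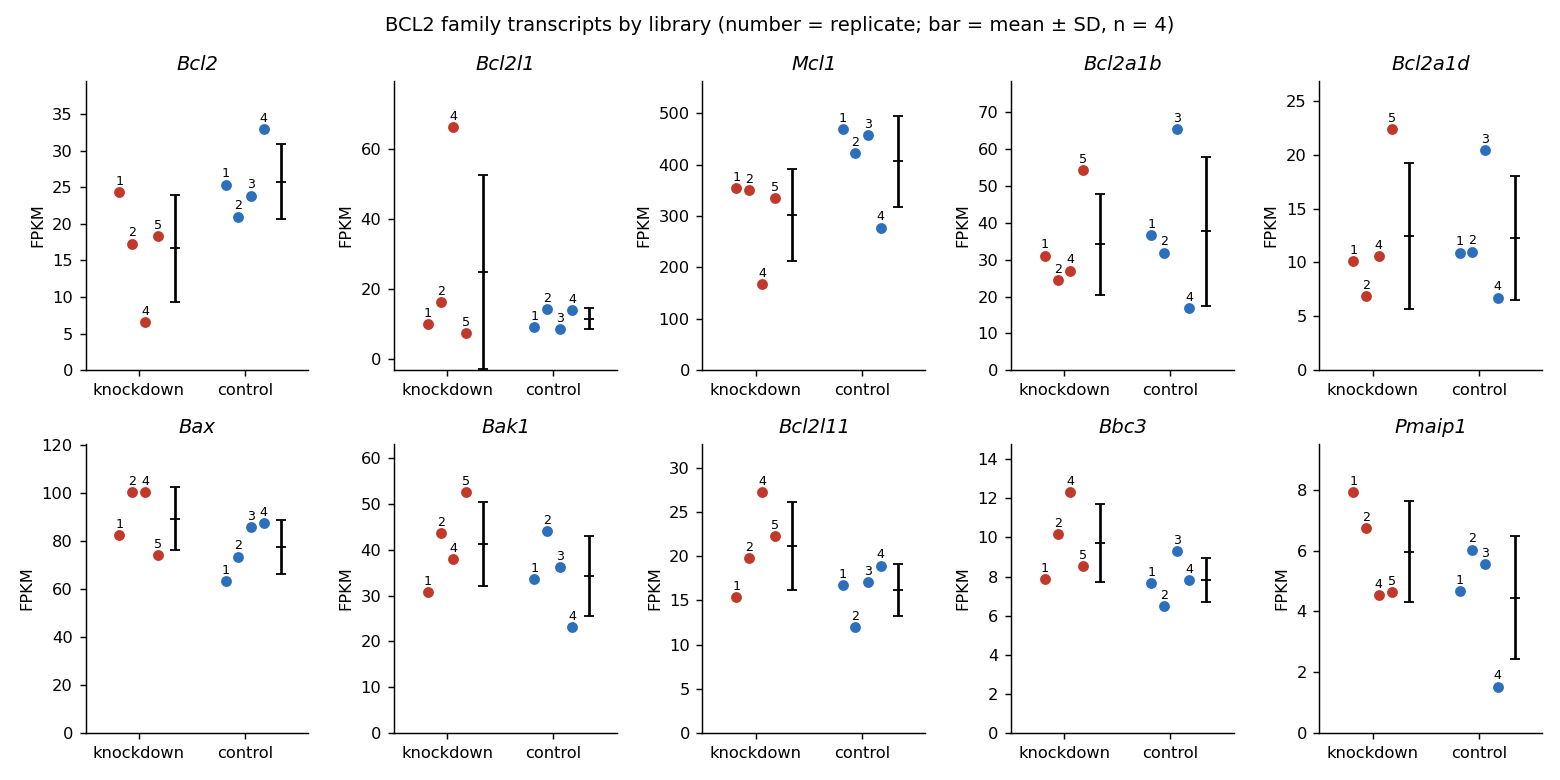
FPKM of the 10 members in each library, with the replicate number above each point and the mean ± SD (n = 4) beside each group, knockdown left of control. Groups overlap for every member, and knockdown replicate 4 is the lowest library for Bcl2 and Mcl1 and the highest for Bcl2l1, Bcl2l11 and Bbc3.

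Among the survival genes, Bcl2 (ENSMUSG00000057329), the founding survival gene and the target of venetoclax, came closest to the threshold. It had 24.3, 17.3, 6.58 and 18.3 FPKM in knockdown replicates 1, 2, 4 and 5, against 25.4, 21.0, 23.8 and 32.9 FPKM in control replicates 1 to 4. Knockdown replicates 2, 4 and 5 lay below every control, replicate 4 by the widest gap, while replicate 1 lay within the control range. The means were 16.6 ± 7.37 FPKM in knockdown and 25.8 ± 5.09 FPKM in control libraries (SD, n = 4 each), with a log2 change of −0.71 ± 0.34 (SE), a 95% interval of −1.48 to 0.06 and an adjusted p of 0.291 (limma). Without knockdown replicate 4 the change was −0.35, with an interval of −0.80 to 0.11 and an adjusted p of 0.484. After median-of-ratios scaling of all 8 libraries it was −0.87, with an interval of −1.67 to −0.07 and an adjusted p of 0.266 (limma). An antisense transcript, D630008O14Rik, overlaps Bcl2 exons and reached 11.8 FPKM. The sources used here do not say whether counting used strand, and without it these reads cannot be told apart.

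Mcl1 (ENSMUSG00000038612), which encodes the short-lived survival protein that restrains BAK, was the most abundant member. Its levels were 354, 350, 167 and 335 FPKM in knockdown replicates 1, 2, 4 and 5, and 469, 422, 457 and 277 FPKM in control replicates 1 to 4. The replicate 4 library was the lowest of its own group in both groups, and the groups overlapped only through control replicate 4. The log2 change was −0.46 ± 0.30 (SE), with a 95% interval of −1.12 to 0.20 and an adjusted p of 0.409 (limma). It was −0.20 (adjusted p = 0.740) without knockdown replicate 4. Without replicate 4 of both groups it was −0.37 with an interval of −0.65 to −0.10, where the adjusted p was 0.212 and no member passed. After median-of-ratios scaling of all 8 libraries the change was −0.63, with an interval of −1.24 to −0.02 and an adjusted p of 0.286 (limma). It was −0.45 after quantile normalization.

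Bcl2l1 (ENSMUSG00000007659), which encodes BCL-XL, differed more between knockdown libraries than between the groups. It had 9.98, 16.4, 66.2 and 7.51 FPKM in knockdown replicates 1, 2, 4 and 5, against 9.31, 14.4, 8.70 and 14.1 FPKM in control replicates 1 to 4. Knockdown replicate 4 was 4.03 times the next highest library, and the other 3 knockdown libraries spread on both sides of the control range. The log2 change was 0.56 ± 0.56 (SE), with a 95% interval of −0.70 to 1.82 and an adjusted p of 0.601 (limma), and its sign turned to −0.07 (adjusted p = 0.937) without knockdown replicate 4.

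Bcl2a1b (ENSMUSG00000089929) and Bcl2a1d (ENSMUSG00000099974) are copies of A1, an NF-kB target gene of haematopoietic cells that mice carry as a cluster of near-identical genes on chromosome 9. Bcl2a1b had 31.1, 24.4, 27.1 and 54.4 FPKM in knockdown replicates 1, 2, 4 and 5, against 36.7, 31.9, 65.5 and 16.8 FPKM in control replicates 1 to 4. Bcl2a1d had 10.1, 6.91, 10.6 and 22.4 FPKM in those knockdown libraries, against 10.9, 11.0, 20.4 and 6.74 FPKM in the controls. Both copies were highest in their group in knockdown replicate 5 and control replicate 3, both were lowest of all libraries in control replicate 4, and the groups overlapped widely. The log2 change of Bcl2a1b was −0.05, with a 95% interval of −0.93 to 0.82 (adjusted p = 0.950, limma). That of Bcl2a1d was 0.00, with an interval of −0.85 to 0.85 (adjusted p = 0.999), and its sign depended on the scaling, at −0.15 after median-of-ratios scaling and −0.18 after quantile normalization.

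The values of the A1 copies are uncertain, because they share most of their sequence and Cufflinks had to divide shared fragments between them. The first 60 coding bases of the 3 expressed copies (GENCODE M21, GRCm38) are shown for this reason, with capitals at the 6 positions where they are not all the same. They lie at chr9:89199360-89199419 (plus strand, Bcl2a1b), chr9:88731660-88731719 (minus, Bcl2a1d) and chr9:88957051-88957110 (plus, Bcl2a1a).
Bcl2a1b: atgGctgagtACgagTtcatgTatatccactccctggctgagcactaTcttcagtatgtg
Bcl2a1d: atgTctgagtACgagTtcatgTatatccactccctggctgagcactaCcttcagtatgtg
Bcl2a1a: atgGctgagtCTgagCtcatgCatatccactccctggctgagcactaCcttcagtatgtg
Bcl2a1b and Bcl2a1d differ at 6 of 516 coding bases and Bcl2a1b and Bcl2a1a at 11. Of all 50-base windows of the transcript, 57.6% in Bcl2a1b, 79.5% in Bcl2a1d and 69.0% in Bcl2a1a occur exactly in another copy. For 100-base windows the shares are lower, at 31.1% in Bcl2a1b, 54.7% in Bcl2a1d and 43.5% in Bcl2a1a. The sum over the Bcl2a1a, b, c and d copies, which a shift of fragments among them leaves in place, was 35.2 to 80.9 FPKM in knockdown libraries and 24.9 to 89.0 FPKM in control libraries. Bcl2a1b stood at 2.43 to 3.53 times Bcl2a1d in knockdown libraries and at 2.50 to 3.36 times in controls, so these 2 copies kept a similar proportion in all 8 libraries. Bcl2a1a did not, with 0.0578 to 0.232 times Bcl2a1b in knockdown libraries, highest in replicate 4, and 0.0341 to 0.0966 times in controls. Bcl2a1b also overlaps Gm29094 on the same strand, which reached 3.11 FPKM.

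The effectors Bax (ENSMUSG00000003873) and Bak1 (ENSMUSG00000057789), whose products form the pore in the outer mitochondrial membrane, had overlapping groups. Bax had 82.7, 100.6, 100.5 and 74.1 FPKM in knockdown replicates 1, 2, 4 and 5, against 63.4, 73.6, 85.8 and 87.5 FPKM in control replicates 1 to 4. Bak1 had 30.9, 43.7, 38.0 and 52.7 FPKM in the knockdown libraries, against 33.6, 44.1, 36.3 and 23.1 FPKM in the controls. Knockdown replicates 2 and 4 exceeded every control for Bax, and for Bak1 knockdown replicate 5 did, while control replicate 4 held the lowest Bak1 value. The log2 changes were 0.20 for Bax, with a 95% interval of −0.20 to 0.61 (adjusted p = 0.551, limma), and 0.27 for Bak1, with an interval of −0.26 to 0.80 (adjusted p = 0.538). Single libraries moved these values, Bax to 0.11 without control replicate 1 and Bak1 to 0.10 without control replicate 4 and 0.15 without knockdown replicate 5. After median-of-ratios scaling they were 0.037 for Bax and 0.11 for Bak1. Bak1 shares exon bases with Ggnbp1 on the opposite strand, which reached 16.4 FPKM, and Bax shares some with Gm45808, which reached 0.214 FPKM.

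The 3 BH3-only members, like the effectors, had positive log2 changes under every setting tried, and none passed the test. The settings reuse the same 8 libraries, and the median over all genes was positive too, except after median-of-ratios scaling and quantile normalization. The lowest values were 0.112 for Bcl2l11 and 0.0099 for Bbc3 with the cycling cell level as a covariate, beside 0.115 over all genes. For Pmaip1 the lowest was 0.093 without control replicate 4, beside 0.0945 over all genes. Bcl2l11 (ENSMUSG00000027381) encodes BIM, the BH3-only protein known for removing B cells that lose survival signals. It had 15.4, 19.8, 27.3 and 22.3 FPKM in knockdown replicates 1, 2, 4 and 5, against 16.8, 11.9, 17.1 and 18.9 FPKM in control replicates 1 to 4. Knockdown replicates 2, 4 and 5 lay above every control, and replicate 1 lay within the control range. The log2 change was 0.36 ± 0.22 (SE), with a 95% interval of −0.12 to 0.84 and an adjusted p of 0.380 (limma). It was 0.23 without knockdown replicate 4 and also 0.23 without control replicate 2.

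Bbc3 (ENSMUSG00000002083), the p53 target that encodes PUMA, had 7.87, 10.2, 12.3 and 8.53 FPKM in knockdown replicates 1, 2, 4 and 5, against 7.67, 6.50, 9.31 and 7.82 FPKM in control replicates 1 to 4. Only knockdown replicates 2 and 4 exceeded the highest control, replicate 3, and all 4 exceeded the lowest 3 controls. The log2 change was 0.27, with an interval of −0.15 to 0.70 and an adjusted p of 0.441, and the change was 0.16 without knockdown replicate 4. Pmaip1 (ENSMUSG00000024521), which encodes NOXA, a BH3-only partner of MCL1 and A1, had 7.93, 6.75, 4.54 and 4.64 FPKM in the knockdown libraries, against 4.67, 6.03, 5.55 and 1.52 FPKM in the controls. Knockdown replicates 1 and 2 were the highest of all libraries, replicates 4 and 5 were lower than 3 of the controls, and control replicate 4 was the lowest. The log2 change was 0.43, with an interval of −0.32 to 1.18 and an adjusted p of 0.495. Without control replicate 4 it was 0.093. Pmaip1 was the least abundant member in both groups.

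**Figure D2:**
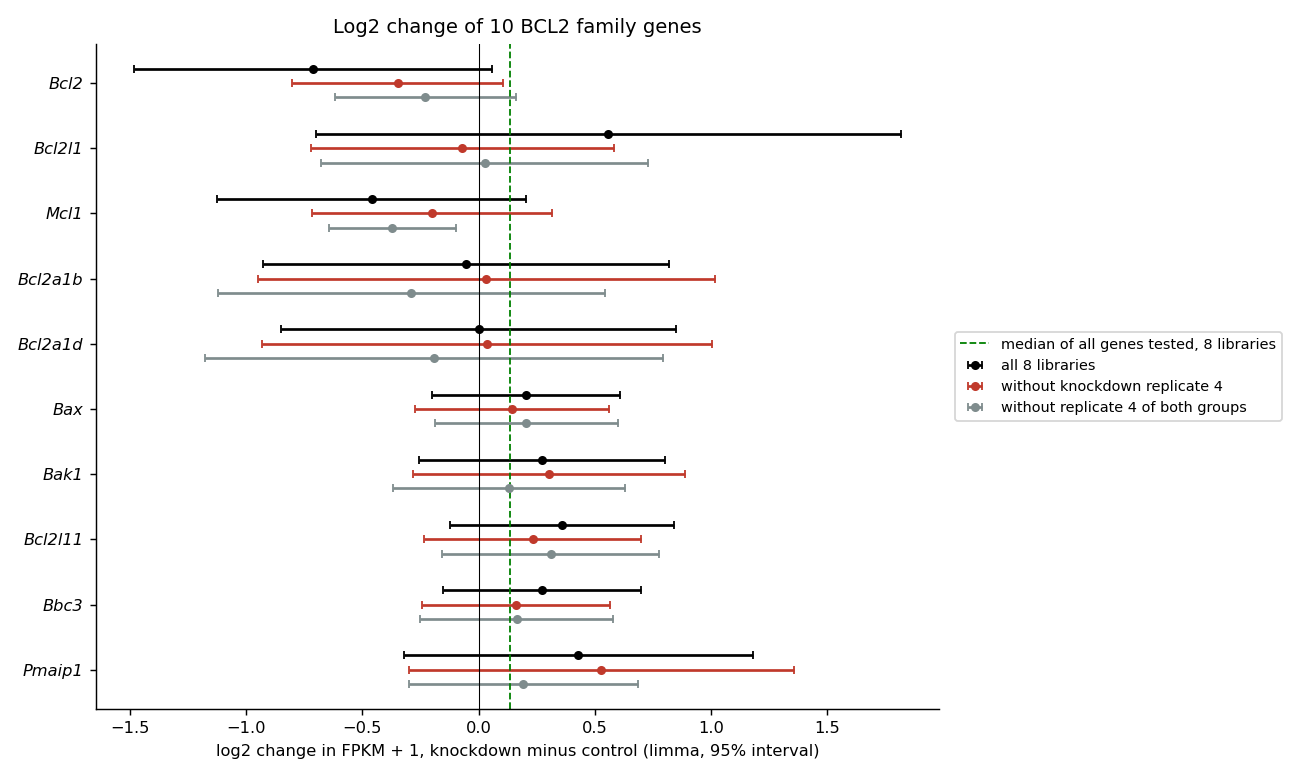
Log2 change in FPKM + 1 (knockdown minus control) of each member with its 95% limma interval, for all 8 libraries, without knockdown replicate 4 and without replicate 4 of both groups, beside the median of all genes tested (0.13). With all 8 libraries and no further scaling every interval includes 0. Bcl2 moves to −0.35 and Bcl2l1 to −0.07 without knockdown replicate 4, and the Mcl1 interval lies below 0 without both replicate 4 libraries. After median-of-ratios scaling, not drawn here, the Bcl2 and Mcl1 intervals lie below 0.

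By FPKM the members kept a steep order of levels. Mcl1 led with a mean of 302 ± 90.1 FPKM in knockdown and 406 ± 88.4 FPKM in control libraries (SD, n = 4 each), and its range did not meet that of any other member. Bax followed with 89.5 ± 13.3 FPKM in knockdown and 77.6 ± 11.3 FPKM in control libraries. Bak1 and Bcl2a1b came next in both groups, with ranges that overlapped each other, and Bax lay above Bak1 without overlap in knockdown libraries. Further down in knockdown libraries no neighbours were apart, from Bcl2l1 (25.0 FPKM) over Bcl2l11 (21.2), Bcl2 (16.6), Bcl2a1d (12.5) and Bbc3 (9.72) to Pmaip1 (5.97). The place of Bcl2l1 rests on knockdown replicate 4, without which its mean was 11.3 FPKM, below Bcl2 (19.97), Bcl2l11 (19.2) and Bcl2a1d (13.1). In controls Bcl2 (25.8) lay above Bcl2l11 (16.2) without overlap and Bbc3 (7.82) above Pmaip1 (4.44), while Bcl2a1d (12.3) and Bcl2l1 (11.6) overlapped their neighbours.

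Set against one another within a library, Mcl1 made up most of the summed FPKM of the 5 survival members. Its share was 60.3% in knockdown replicate 4, 76.6% to 84.4% in the other knockdown libraries and 79.4% to 85.1% in controls. Bcl2l1 gave 23.8% in knockdown replicate 4, against 1.72% to 3.95% in the other knockdown libraries and 1.51% to 4.04% in controls. The survival sum was 278 FPKM in knockdown replicate 4, 415 to 438 FPKM in the other knockdown libraries and 348 to 576 FPKM in controls, with control replicate 4 the lowest of its group. In that control the share of Bcl2 was the highest of all libraries, at 9.46%.

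**Figure D3:**
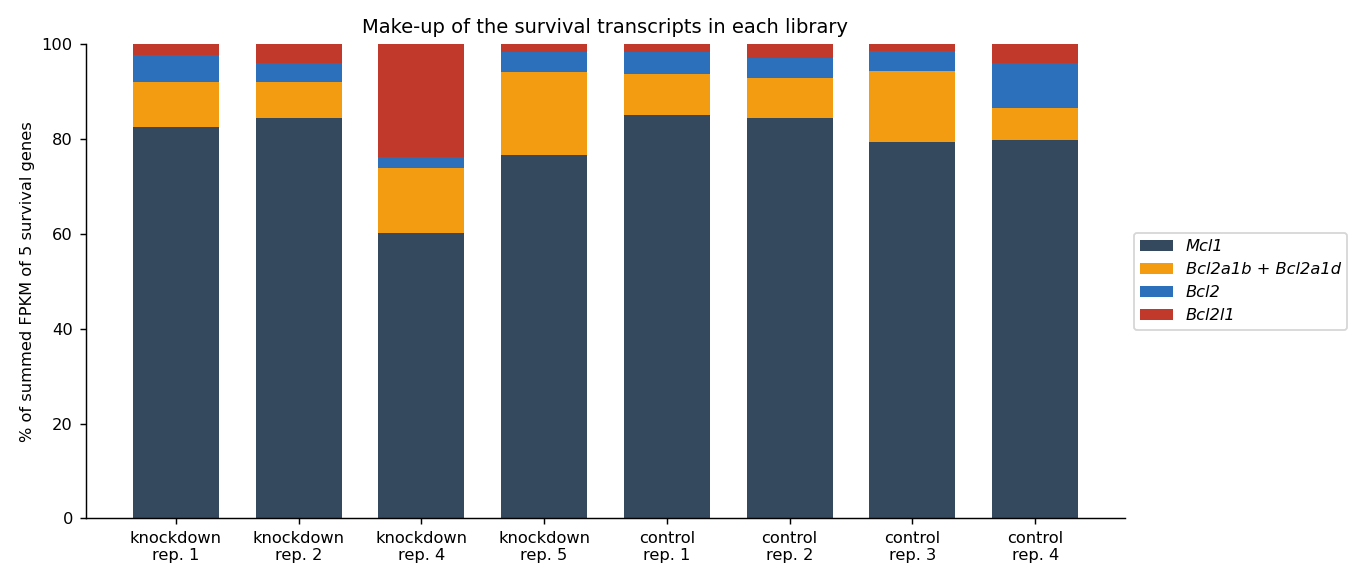
Share of each gene in the summed FPKM of the 5 survival members (%), 1 bar for each library, knockdown left of control. Mcl1 fills 76.6% to 85.1% of the bar in 7 libraries and 60.3% in knockdown replicate 4, where Bcl2l1 takes 23.8%.

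Bcl2l11 and Bcl2, whose products bind each other, had log2 changes of opposite sign. The ratio of Bcl2l11 to Bcl2 in FPKM was 0.633, 1.14, 4.14 and 1.22 in knockdown replicates 1, 2, 4 and 5, against 0.661, 0.569, 0.718 and 0.575 in control replicates 1 to 4. It was above every control in knockdown replicates 2, 4 and 5, and within the control range in replicate 1. The summed effector and BH3-only FPKM was 0.450 ± 0.144 times the survival sum in knockdown libraries and 0.295 ± 0.0733 times in controls (SD, n = 4 each), with overlapping ranges of 0.337 to 0.658 and 0.229 to 0.399. Without knockdown replicate 4 the ratio was 0.381 ± 0.0504. These ratios combine members chosen with earlier results known and were given no test.

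The library with the lowest Bcl2 and Mcl1 was also the library with the lowest B cell markers. Knockdown replicate 4 had a B cell marker level of 7.65, against 8.99 to 9.13 in the other knockdown libraries and 9.16 to 9.41 in controls. Taken relative to that level, log2(FPKM + 1) of Bcl2 was −4.69 ± 0.15 in knockdown libraries and −4.58 ± 0.21 in controls (SD, n = 4 each). That of Mcl1 was −0.52 ± 0.18 in knockdown libraries and −0.66 ± 0.42 in controls. With the B cell level as a covariate the log2 change was −0.07 for Bcl2, with a 95% interval of −0.52 to 0.37, and −0.05 for Mcl1, with an interval of −0.66 to 0.56. The B cell levels of the groups did not overlap, so group and B cell level cannot be told apart in these libraries.

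The erythroid level, the mean over 8 genes, was 7.73 in knockdown replicate 4, the library with the highest Bcl2l1. It was 4.13 to 5.69 in the other knockdown libraries and 4.17 to 4.86 in controls. With it as a covariate, an alternative added after the data were seen, the Bcl2l1 change was −0.27. The cycling cell level was 5.55 to 7.19 in knockdown libraries and 5.14 to 5.55 in controls, all 8 genes having a higher mean in knockdown libraries. With this level as a covariate the changes were 0.21 for Bcl2, 0.05 for Mcl1 and −0.95 for Bcl2l1, and no member passed. Of the other marker lists, monocyte and macrophage genes stood at 4.36 to 5.17 in knockdown and 3.01 to 3.998 in control libraries, without overlap. Plasma cell genes stood at 4.24 to 5.23 in knockdown and 5.10 to 6.27 in control libraries, with overlap. Megakaryocyte and platelet genes stood at 1.604 to 2.79 in knockdown and 0.860 to 1.46 in control libraries, without overlap, and 6 of 7 had a higher mean in knockdown libraries. T cell levels overlapped (4.17 to 5.36 in knockdown, 3.52 to 5.20 in control libraries), though all 8 genes had a higher mean in knockdown libraries, and neutrophil levels overlapped too (1.51 to 3.21 in knockdown, 2.41 to 4.68 in control libraries), with 2 of 8 higher. The part of these cells in the member values was not tested.

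**Figure D4:**
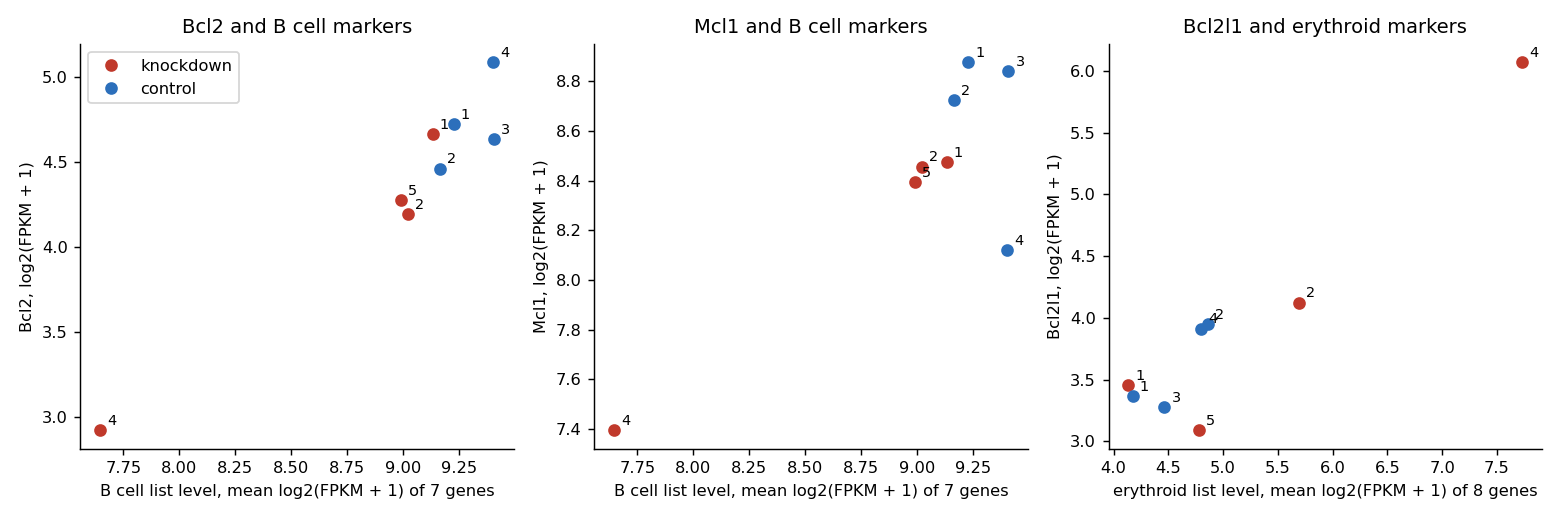
Log2(FPKM + 1) of Bcl2 and Mcl1 against the mean level of 7 B cell markers, and of Bcl2l1 against that of 8 erythroid markers, 1 numbered point for each library. Knockdown replicate 4 lies far from the other 7 libraries in all 3 panels, at a B cell level of 7.65 and an erythroid level of 7.73.

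The rest of the pathway was described from 3 further lists. Of 16 other BCL2 family genes 10 were expressed enough to be tested, and none passed the adjusted threshold (limma), while 1 had an unadjusted p under 0.05. This was Bcl2l13, which encodes a mitochondrial outer membrane protein of the family, with 14.2, 22.8, 38.2 and 23.6 FPKM in knockdown replicates 1, 2, 4 and 5, against 13.3, 13.2, 10.7 and 9.66 FPKM in control replicates 1 to 4. Its groups did not overlap, and its log2 change was 0.95 (adjusted p = 0.124). The end of the Bcl2l13 gene overlaps that of Bid on the opposite strand, which had 37.2 to 46.6 FPKM in knockdown and 44.1 to 57.55 FPKM in control libraries. Whether strand was used in counting is not known. Next by p came the A1 copy Bcl2a1a (log2 change 0.61, adjusted p = 0.321), Bnip3 (0.43, adjusted p = 0.348), which encodes a mitophagy receptor, and Bad (0.34, adjusted p = 0.372), a BH3-only gene. Without control replicate 4 the changes of Bcl2a1a and Bad were 0.38 and 0.21, and without knockdown replicate 4 that of Bcl2a1a was 0.39. The median log2 change of the 10 was 0.30.

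A list of 20 genes, all tested, held apoptosome, caspase and caspase inhibitor genes and genes of other mitochondrial proteins. Of these 0 passed the adjusted threshold (limma), and 11 had an unadjusted p under 0.05 (55.0%, beside 19.2% of all genes). In 8 the groups did not overlap (40.0%, beside 13.1%). The mitochondrial genes Aifm1, Endog, Vdac1, Vdac2 and Htra2 were among the 11, while Vdac3, Diablo and Cycs were not. Aifm1, Endog and Vdac1 were among the 8. Of the 11, 10 were higher in knockdown libraries and 1, the caspase inhibitor gene Birc2, was lower, with a log2 change of −0.39. Most genes at that p were higher, as of all 2480 with an unadjusted p under 0.05 (limma), 2040 were higher and 440 lower. The median log2 change of the 20 was 0.47. Aifm1, which encodes a flavoprotein of the mitochondrial intermembrane space, had 19.9, 26.9, 42.2 and 19.2 FPKM in knockdown replicates 1, 2, 4 and 5, against 13.0, 12.7, 15.8 and 9.68 FPKM in control replicates 1 to 4. All knockdown libraries lay above all controls, replicate 4 the furthest, and the log2 change was 0.97 ± 0.26 (SE, adjusted p = 0.106). The executioner caspase gene Casp6 had a log2 change of 0.88 (adjusted p = 0.131), the mitochondrial pore gene Vdac1 0.80 (adjusted p = 0.123) and Endog, which encodes a mitochondrial endonuclease, 0.80 (adjusted p = 0.164). With the cycling cell level as a covariate the changes were 0.37 for Aifm1, 0.42 for Casp6, 0.31 for Vdac1 and 0.45 for Endog. Of these genes Birc5, which encodes survivin and is a gene of dividing cells, had 106 ± 87.7 FPKM in knockdown and 39.6 ± 5.69 FPKM in control libraries (SD, n = 4 each). Without knockdown replicate 4 the knockdown mean of Birc5 was 62.4 ± 19.1 FPKM. Birc5 and Birc2 were named after their values were seen.

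Of 13 listed upstream regulators of the family 12 were tested, with 0 past the adjusted threshold (limma) and a median log2 change of −0.10. At an unadjusted p under 0.05 the count was 0 of 12, beside 19.2% of all genes. E2f1, a transcription factor of the cell cycle, had the smallest p, with 10.9 ± 3.82 FPKM in knockdown and 7.17 ± 1.45 FPKM in control libraries (log2 change 0.50, adjusted p = 0.298). Trp53, which encodes the p53 activator of Bbc3, Pmaip1 and Bax, had 123 ± 35.6 FPKM in knockdown and 92.4 ± 18.5 FPKM in control libraries (log2 change 0.38, adjusted p = 0.401). Foxo1, of the forkhead factors that activate Bcl2l11, had a log2 change of −0.45 (adjusted p = 0.439). Nfkb1, which encodes an NF-kB subunit, had one of −0.32 (adjusted p = 0.474). Without knockdown replicate 4 the changes were 0.31 for E2f1, 0.24 for Trp53, −0.19 for Foxo1 and −0.12 for Nfkb1.

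**Figure D5:**
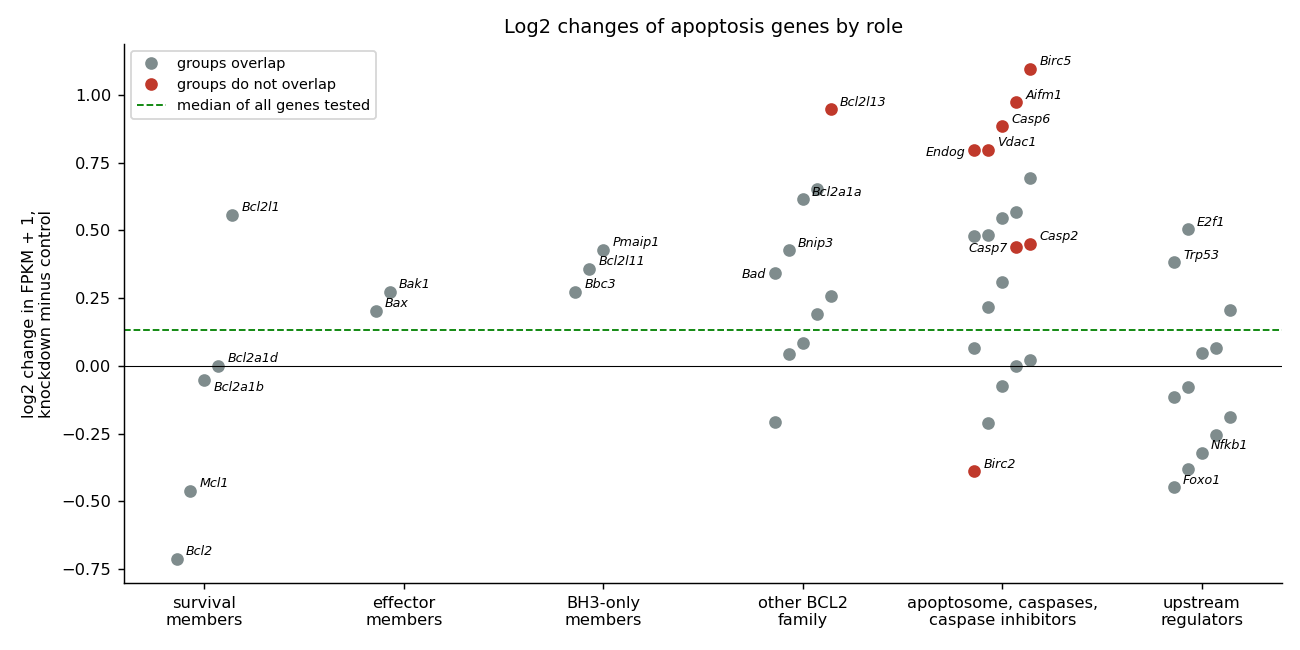
Log2 change in FPKM + 1 (knockdown minus control) of the members by role and of the 3 further lists, 1 point for each gene tested, in red where the groups did not overlap. No member is red, against 1 of 10 other BCL2 family genes (Bcl2l13) and none of 12 regulators. In the list of apoptosome, caspase, inhibitor and other mitochondrial protein genes 8 of 20 are red. Over all 12890 genes tested the groups did not overlap in 13.1%.

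The genes whose pattern over the 8 libraries was nearest to that of a member were found by the mean absolute gap between log2 deviations from each gene's mean, among 8848 genes. Nearest to Bcl2 were Filip1l (gap 0.0915) and Ralgds (0.108), where the median gene lay at 0.536. Nearest to Mcl1 were Il16 (0.0683) and Prmt2 (0.0701), beside a median of 0.425, and nearest to Bcl2l11 were Mrps18b (0.0643) and Dkc1 (0.0836), beside 0.350. The libraries that stand apart weigh in these gaps, and a near pattern is a description of the same 8 libraries.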

How the data were processed

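The material was polyadenylated RNA of splenic mononuclear cells (mirVana extraction and NovaSeq sequencing, per the labels' protocols). The authors deposited 1 table of FPKM values, fragments per kilobase scaled to library size, and 0 of its sample columns were left unmapped. CASAVA and Cufflinks, with no version, appear in the submitters' processing notes. Not given in the sources used here are the aligner, the genome build, the annotation and whether strand was used. FPKM depends on how Cufflinks divides fragments among similar genes and on the most abundant transcripts of a library.

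Identifiers were named with GENCODE M21 (53865 of 54018 matched, and all 121 list symbols). Genes that reached 1 FPKM in 4 or more libraries were tested on log2(FPKM + 1) with limma 3.58.1 (mean-variance trend, R 4.3.3), knockdown minus control, with Benjamini-Hochberg adjustment over 12890 genes. All 10 members passed this filter. A log2 change on this scale understates the change of low genes. The members and lists were chosen with earlier results of these data known, and 1 gene taken out of the caspase list is not reported here. Named were Kdm1a, all members, the 4 genes of smallest p in each further list, and the 2 genes nearest in pattern to Bcl2, Mcl1 and Bcl2l11 among named genes with a mean of 5 FPKM or more. The fit was run on simulated data with planted changes larger than those of any member, so that run does not show what the fit would find at their size. Depth was estimated from low values of transcripts of at least 1500 bases, of which 58.5% to 72.7% lay within 5% of a whole multiple. Alternatives changed the pseudocount (0.1 or 5), filter, scaling, test, replicate block, libraries and covariates. Python 3.11.15 with pandas 2.3.3 and numpy 2.4.6 made the tables, and matplotlib 3.10.9 the plots.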

Additional observations from a re-analysis of the deposited data

Results flagged for a closer look

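In 46 groups of 4 values (Kdm1a, the members and the named pathway genes in knockdown and in control libraries), 3 had a library whose gap to its nearest neighbour exceeded the 95% critical value of Dixon's test, where chance gives about 1 in 20 groups. Bcl2l1 had 66.2 FPKM in knockdown replicate 4, against 7.51 to 16.4 FPKM in the other knockdown libraries. Mcl1 had 167 FPKM in the same library, against 335 to 354 FPKM in the other knockdown libraries. Endog had 0.715 FPKM in control replicate 4, against 2.14 to 2.29 FPKM in the other control libraries.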

How the results depend on the processing

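No member passed an adjusted p of 0.05 under any of 21 alternatives, the lowest adjusted p being 0.172 (Bcl2 without knockdown replicate 1). Of 459 values of members and named pathway genes under these alternatives, 427 kept their direction and side of the threshold, 29 changed sign and 3 passed the threshold. The count of genes past the threshold, 224 as reported, was 24 with a pseudocount of 5, 2 with no filter, 126 after quantile normalization, 71 where the mean had to reach 5 FPKM, 761 with array weights, 120 without both replicate 4 libraries, 56 with the B cell level and 18 with the cycling level as a covariate. It ran from 8 (without control replicate 4) to 333 (without knockdown replicate 5) over the libraries left out in turn. The cause of these shifts was not tested. For the further pathway lists the count was 2 with array weights (Aifm1 and Vdac1) and 0 to 1 over the libraries left out (Bcl2l13 without knockdown replicate 1).

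Whether replicate numbers pair the libraries could not be told from the values. The deviations of same-numbered libraries correlated at 0.163, 0.047 and −0.118, beside −0.149 to 0.148 for libraries of different number. Knockdown replicate 5 and control replicate 3 have no partner of the same number. With replicate number as a block 0 genes passed (limma, 2085 at an unadjusted p under 0.05), and the log2 change was 0.016 for Bcl2a1b and −0.041 for Bcl2a1d.

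The A1 copies and Bcl2l1 changed sign most often, and the cause was not tested. Bcl2a1d, at 0.00 as reported, was −0.00033 with a pseudocount of 0.1, −0.15 after median-of-ratios scaling, −0.18 after quantile normalization, −0.37 with array weights, −0.19 without both replicate 4 libraries and −0.30 to 0.26 over the libraries left out. Bcl2a1b, at −0.05, was 0.076, 0.15 and 0.14 with the B cell, cycling and erythroid covariate, and −0.38 to 0.26 over the libraries left out. Bcl2l1, at 0.56, was −0.49, −0.95 and −0.27 with these covariates, and −0.070 to 0.92 over the libraries left out. With the cycling level as a covariate the change was 0.21 for Bcl2, 0.053 for Mcl1, −0.089 for Bcl2a1a, −0.0084 for E2f1, 0.20 for Foxo1 and 0.17 for Nfkb1. With the B cell level it was 0.0016 for Foxo1 and 0.011 for Nfkb1.

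The 95% intervals rest on 4 libraries a group, and reach 1.82 on the log2 scale for Bcl2l1 and −1.48 for Bcl2. At the depth of these libraries 1 FPKM stands for 37.3 fragments per kilobase or more. B cell level splits the libraries as group does, as do the monocyte and macrophage level and the megakaryocyte and platelet level. Sex nearly does so.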
